A study of Mus musculus with 8 samples.

Results

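The lamina associated domains (LADs) of 3T3-L1 preadipocytes were compared with those of 3T3-L1 adipocytes in which Tmem120a and Tmem120b were both knocked down. The genes described here are the 2281, out of 22367 that code for protein, whose body touched a LAD in only 1 of these lists. A gene was called released when its body, from the start to the end of the annotated gene, shared at least 1 bp with a LAD of the preadipocyte list and none with a LAD of the double knockdown list, and recruited in the reverse case. The 2 words name these states and say nothing of how a locus moved. By this rule 769 genes were released, 3.44% of all protein-coding genes, and 1512 were recruited, 6.76% of them.

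3T3-L1 is a mouse fibroblast line that forms fat cells when insulin, dexamethasone, IBMX and rosiglitazone are added. In DamID, LaminB1 was fused to the bacterial adenine methylase Dam, which leaves its mark on GATC sequences near the fusion protein, and free Dam served as the control. The preadipocytes were sampled undifferentiated at day 0, and their labels call them untreated and name no shRNA. The double knockdown cells were sampled at day 9 of differentiation and carried the Tmem120a/b shRNA. Differentiation, the treatment with an shRNA as far as it is labelled, and the knockdown therefore changed together between these lists, and their parts cannot be told apart. The series also holds adipocytes at day 9 with a non-target shRNA and adipocytes with the Tmem120a shRNA. Their values are given beside named genes and stretches only, and every comparison with preadipocytes uses the same preadipocyte list.

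A single pair of libraries, LaminB1-Dam and Dam, stood behind each list. No value therefore has a spread between replicates, no test was made, and differences are those between 2 lists. The lists hold positions alone, so sequencing depth and the strength of a LAD are unknown. Neither the degree of knockdown nor the state of differentiation can be checked from positions. Tmem120a and Tmem120b themselves lay in no LAD of either list.

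The nuclear lamina is a meshwork of lamins under the inner nuclear membrane, and the chromatin it touches is mostly gene-poor, late replicating and weakly transcribed. The positions of many loci relative to the lamina differ between cell types, and genes at the lamina tend to be silent. Tmem120a and its paralog Tmem120b encode nuclear envelope transmembrane proteins that are prominent in fat tissue.

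A LAD border in these lists falls on a GATC site, because the fragments that were scored end there. Borders lay on a GATC in 97.8% of cases in the preadipocyte list (7652 of 7828) and in 98.8% in the double knockdown list (13770 of 13942), read in the mm9 sequence. The windows of 60 bases below show this at borders of LADs that hold genes described further on, with the GATC at the border in capitals. Cd36 and Isl1 were in preadipocyte LADs only, and Ucp1, Lbr and Zmpste24 were in double knockdown LADs only.
Isl1, left border, chr13:116817290-116817349, plus strand: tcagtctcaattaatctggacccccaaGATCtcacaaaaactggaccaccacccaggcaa
Cd36, left border, chr5:17283580-17283639, plus strand: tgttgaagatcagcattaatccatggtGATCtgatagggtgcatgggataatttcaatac
Cd36, right border, chr5:17512306-17512365, plus strand: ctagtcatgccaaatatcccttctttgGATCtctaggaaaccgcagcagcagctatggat
Ucp1, left border, chr8:85810028-85810087, plus strand: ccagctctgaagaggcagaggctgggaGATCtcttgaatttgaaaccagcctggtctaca
Ucp1, right border, chr8:85860141-85860200, plus strand: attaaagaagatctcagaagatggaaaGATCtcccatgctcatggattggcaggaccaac
Lbr, left border, chr1:183748504-183748563, plus strand: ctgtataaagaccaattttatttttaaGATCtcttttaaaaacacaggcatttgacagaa
Zmpste24, right border, chr4:120797033-120797092, plus strand: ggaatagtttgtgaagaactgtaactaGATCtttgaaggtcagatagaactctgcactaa
Only windows with the border at a GATC and no exon base are printed. Of the other borders of the LADs around Isl1, Lbr, Zmpste24 and Pck1, the right one of Isl1 was not at a GATC, and those of the other 3 genes were at a GATC within exons.

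The first question was how much LAD sequence differed between the preadipocyte and the double knockdown list. The preadipocyte list held 3914 LADs of 1192.5 Mb in all, and the double knockdown list held 6971 LADs of 1161.4 Mb. The sequence common to both lists, 1019.3 Mb, made up 85.5% of LAD length in preadipocytes and 87.8% in the double knockdown. LAD sequence found only in preadipocytes came to 173 Mb (6.53% of mm9) in 5919 stretches. LAD sequence found only in the double knockdown came to 142 Mb (5.35%) in 4757 stretches. The order of these lengths turned when gaps under 50 kb were closed in both lists, with 134 Mb against 144 Mb.

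The stretches found in 1 list were short in both directions. The median was 20.8 kb for preadipocyte-only and 23.4 kb for double knockdown-only stretches, and the upper quartiles were 38.5 kb and 40.2 kb. Long stretches were mostly those of preadipocytes. Of the preadipocyte-only stretches 188 reached 100 kb and 18 reached 200 kb, and of the double knockdown-only stretches 109 and 1 did. A protein-coding gene was met by 2056 preadipocyte-only stretches (34.7%) and by 2455 double knockdown-only stretches (51.6%).

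The stretches differed in how they lay against LADs shared by both lists. A preadipocyte-only stretch was most often an interior piece, with shared LAD on both sides, in 2735 of 5919 cases (46.2%, 68.4 Mb). A further 2265 (38.3%, 62.4 Mb) lay at an edge, with shared LAD on 1 side, and 919 (15.5%, 42.5 Mb) were whole LADs with no overlap in the double knockdown list. In the double knockdown-only set, 1940 stretches (40.8%, 71.9 Mb) were whole LADs with no overlap in the preadipocyte list, 2118 (44.5%, 52.5 Mb) lay at an edge and 699 (14.7%, 17.8 Mb) had shared LAD on both sides. Preadipocyte LADs thus held 2741 double knockdown gaps with a median of 16.8 kb, whereas double knockdown LADs held 704 preadipocyte gaps with a median of 17.5 kb. Whole LADs of 1 list had medians of 36.0 kb in preadipocytes and 30.5 kb in the double knockdown.

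**Figure D1:**
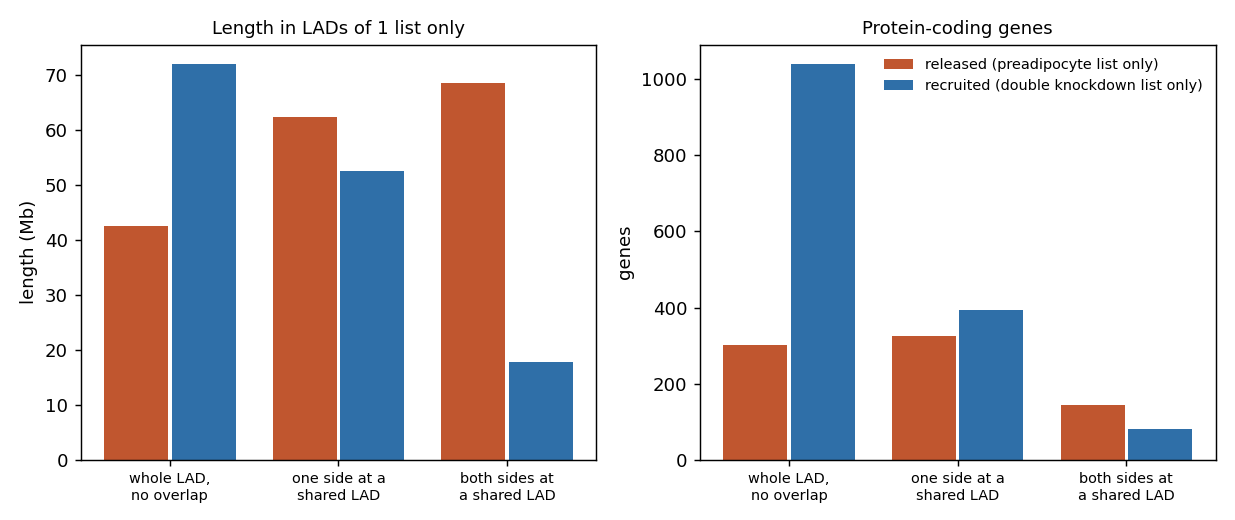
Length in megabases (left) and number of protein-coding genes (right) of LAD stretches found in the preadipocyte list only (released) or the double knockdown list only (recruited), by whether the stretch was a whole LAD with no overlap in the other list or touched shared LAD on 1 or both sides. Bars are totals of single lists without error. Interior pieces made 68.4 Mb of the preadipocyte-only length, and whole LADs held 1039 of the recruited genes.

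Genes were spread over the kinds of stretch in other proportions than the stretches themselves. The rule sets part of this difference. A gene that reaches from an edge or interior piece into shared LAD meets LADs of both lists and is not counted. Of the 769 released genes 301 (39.1%) lay in whole preadipocyte LADs that the double knockdown list lacked, 324 (42.1%) at edges and 144 (18.7%) in interior pieces. Of the 1512 recruited genes 1039 (68.7%) lay in whole double knockdown LADs with no preadipocyte counterpart, 393 (26.0%) at edges and 80 (5.29%) in interior pieces. Recruited genes were 1.97 times as many as released genes, although the length that they came from was the smaller one. This order depended on the short LADs. With only LADs of at least 100 kb kept in both lists, 892 genes (3.99%) were released and 614 (2.75%) recruited. A gene counted under this setting can still meet a shorter LAD of the other list. By the start site alone, 873 genes were released (3.90%) and 983 recruited (4.39%). With at least 50% of the body required these were 726 (3.25%) and 978 (4.37%). With the whole body in a LAD of 1 list and none of it in the other they were 406 (1.82%) and 472 (2.11%). The released genes were 13.1% of the 5865 genes that met a preadipocyte LAD, and the recruited genes were 9.16% of those that met none.

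Released genes were covered more completely than recruited ones. The median share of the gene body in the LAD was 100% for released genes, with 406 of 769 wholly inside (52.8%), and 52.5% for recruited genes, with 472 of 1512 wholly inside (31.2%). The transcription start site itself lay in the LAD for 579 released (75.3%) and 816 recruited genes (54.0%). Recruited genes were also longer, with a median body of 32.5 kb against 15.8 kb for released genes, 15.8 kb for genes in no LAD of either list and 8.54 kb for the 5096 genes that met LADs of both. A long gene can meet a short LAD with a small part of its body, and 177 recruited and 67 released genes had under 10% of their body in it. At the threshold of 1 bp, the smallest released share was that of Acad8, a mitochondrial acyl-CoA dehydrogenase, with 0.0708% of its body in a preadipocyte LAD. The smallest recruited share was that of Slc25a48, a mitochondrial carrier, with 0.159% in a double knockdown LAD. Just outside the threshold, Zfp951 was released with its nearest double knockdown LAD 0.0790 kb away, and Hsd17b4, a peroxisomal beta-oxidation enzyme, was recruited with its nearest preadipocyte LAD 0.0240 kb away. Calls at this end can be changed by 1 border.

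**Figure D2:**
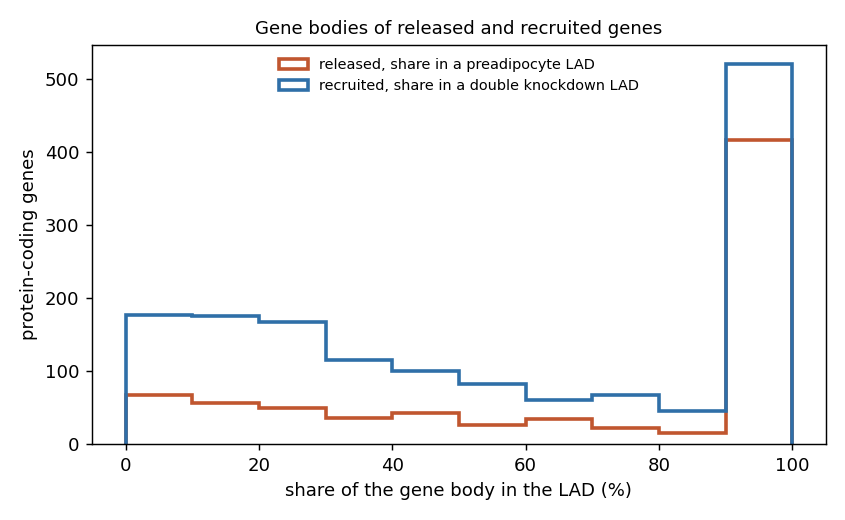
Number of protein-coding genes (vertical axis) by the share of the gene body that lay in the LAD, in percent and in bins of 10 points, for genes released from preadipocyte LADs and genes recruited to double knockdown LADs. The last bin holds the genes wholly inside a LAD, 406 released and 472 recruited, and recruited genes also fill the bins of small shares.

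Recruited genes lay farther from the other list's LADs. The median distance from a recruited gene to the nearest preadipocyte LAD was 68.8 kb, and 677 of 1512 lay over 100 kb away. For released genes the median distance to the nearest double knockdown LAD was 24.0 kb, and 149 of 769 lay over 100 kb away. The farthest recruited gene was Neo1, which encodes neogenin, a netrin receptor. Its body met a 46.7 kb double knockdown LAD over 28.9% of its length, with no preadipocyte LAD for 4365 kb. The farthest released gene was Sntb1, which encodes a syntrophin of the dystrophin complex. Its body lay in a 136 kb preadipocyte LAD over 60.5% of its length, with no double knockdown LAD for 2195 kb.

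Neighbouring genes changed together in some places, but most changed alone. The released genes formed 585 runs of neighbours in the gene order, of which 454 were single genes and 36 held 3 or more. The recruited genes formed 1075 runs, of which 790 were single genes and 91 held 3 or more. The longest released run was 6 genes on chromosome 1, Gm4955, BC094916, Pydc4, Pyhin1, Pydc3 and AI607873, which include members of the PYHIN family of interferon-inducible DNA sensors. A released run of 5 on chromosome 10 held retinol dehydrogenase genes, Rdh9, Rdh16, Rdh19 and Rdh7, with BC089597. The longest recruited run was 10 genes on chromosome 1, Dgkd, Usp40 and the Ugt1a genes from Ugt1a10 to Ugt1a2. A recruited run of 9 on chromosome 13 held Trim38, the phosphate transporter genes Slc17a2, Slc17a3, Slc17a1 and Slc17a4, the histone genes Hist1h2ba and Hist1h2aa, Scgn and Lrrc16a.

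The stretches with the most genes were small gene clusters. Recruited chr1:90105420-90134320, only 28.9 kb long, met 10 genes, the 9 Ugt1a genes and Heatr7b1, and was in no adipocyte or Tmem120a knockdown LAD. The Ugt1a genes encode UDP-glucuronosyltransferases and overlap each other, so they are not separate loci. Recruited chr11:99598011-99650294 (52.3 kb) met 9 genes of the keratin-associated region, among them Krtap4-8 and Krtap4-9, and was 89.0% in LADs of the Tmem120a knockdown. Recruited chr10:23584686-23712020 (127 kb) met the pantetheinase genes Vnn1 and Vnn3 and the trace amine receptor genes Taar1 to Taar6, and 7 of these 8 genes were recruited. Released chr11:50602848-50707257 (104 kb) met Adamts2, Zfp354c, Zfp879, Grm6 and Zfp454, and was in no LAD of the other lists. Released chr6:129318002-129416883 (98.9 kb) met the C-type lectin receptor genes Clec12b, Clec1a, Clec1b, Clec9a and Clec7a, of which 4 were released. Released chr10:99681476-99817481 (136 kb) met 5 predicted genes.

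The 3 longest stretches in each direction held few genes. The longest released stretch, chr13:116817320-117190276 (373 kb), held Isl1 and Gm6404. The next were chr10:32725707-33038279 (313 kb) within Trdn, the gene of the junctional muscle protein triadin, and chr1:148520601-148812700 (292 kb) at Fam5c. Both were wholly in adipocyte LADs and had double knockdown LADs on both sides, and neither gene counted as released because its body also met double knockdown LADs. The longest recruited stretch was chrX:122167862-122386442 (219 kb) with Gm17679 and Gm17693. It was followed by chr13:53669298-53838657 (169 kb) with no protein-coding gene and chr5:53412325-53578124 (166 kb) with Slc34a2 and Sel1l3.

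Named released genes are the 15 with a gene symbol that lay wholly in the longest preadipocyte-only stretches, and each was covered 100% in preadipocytes and 0% in the double knockdown. First was Isl1 (chr13:117088478-117099896), a LIM homeodomain factor of motor neurons and pancreatic islets, 100% in an adipocyte LAD and 0% in a Tmem120a knockdown LAD. Gdap1 (chr1:17135443-17154352), a mitochondrial outer membrane protein of neurons, had the same 4 values, as had Rgs13, a regulator of G protein signalling, and Rpsa-ps10. Gene bodies outside LADs in all 3 sets of adipocytes were those of Iigp1, Gbp6 and Gbp11, which encode interferon-inducible GTPases, and of Pydc4, Kcne4, Shank3 and Acr. Kcne4 encodes a potassium channel subunit, Shank3 a scaffold of the postsynaptic density and Acr the sperm protease acrosin. The gene Ftmt, which encodes mitochondrial ferritin, was 100% in LADs of adipocytes and of the Tmem120a knockdown and lacked a LAD in the double knockdown alone. Intermediate shares were found for Cyyr1 (17.1% in adipocytes and 26.5% in the Tmem120a knockdown), for Ddx60, an interferon-induced helicase (95.5% and 35%), and for Lmo1, a LIM-only cofactor (69.6% and 45.8%).

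Named recruited genes are the 15 that lay wholly in the longest double knockdown-only stretches, each 0% in a preadipocyte LAD and 100% in a double knockdown LAD. First was Slc34a2 (chr5:53429321-53462903), a sodium phosphate cotransporter, which lay in no LAD of adipocytes or of the Tmem120a knockdown. The same was found for Rsph3a, a radial spoke protein of cilia, for Olfr1357, for the carboxylesterase gene Ces1f, for Crybg3 and for the trace amine receptor gene Taar1. Partial shares in the Tmem120a knockdown were found for Mme, which encodes the peptidase neprilysin (31.1%), for Vnn1 (21%) and for Ces1g (3.82%), all 0% in adipocytes. The melanocortin receptor gene Mc4r and the myelin protein gene Ermn were 100% in LADs of adipocytes and of the Tmem120a knockdown. Casp14, a caspase of the epidermis, and Apoo-ps were 100% in adipocyte LADs and 0% in the Tmem120a knockdown. Cwf19l2 had 52.2% in adipocytes and 91.8% in the Tmem120a knockdown. All 15 released and all 15 recruited genes of these lists kept their state with LADs of at least 30 kb, with LADs of at least 100 kb and with gaps under 50 kb closed.

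Genes of the fat cell were mostly in no LAD of either list, as were 67.0% of all protein-coding genes. Of 39 measured adipogenic transcription factors 33 met no LAD (84.6%), 2 met LADs of both lists, 2 were released and 2 recruited (5.13% each, against 3.44% and 6.76% of all genes). The released ones were Nr4a3, an orphan nuclear receptor (49.9% of its body in preadipocytes, in a 21 kb LAD), and Zbtb16, a zinc finger factor (43.2%, 143 kb LAD, nearest double knockdown LAD 263 kb away). A double knockdown LAD came within 0.649 kb of Nr4a3, which met no LAD when LADs under 30 kb were left out and had the larger share in the double knockdown when gaps under 50 kb were closed. The recruited ones, Nfib (9.98%) and Mecom (5.51%), were met over a small part of long bodies, and both met no LAD with LADs of at least 100 kb. Of 55 lipid storage and adipokine genes 48 met no LAD (87.3%), 3 met LADs of both lists, 2 were released and 2 recruited (3.64% each, so that the released share was near that of all genes).

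Cd36 and Pck1 were the released lipid genes, and both were covered 100% in preadipocytes and 0% in the double knockdown. Cd36 (chr5:17287508-17394777), the fatty acid translocase, lay in a 229 kb preadipocyte LAD whose borders are shown above, and the nearest double knockdown LAD was 8.41 kb from the gene. Pck1 (chr2:172978549-172984774), phosphoenolpyruvate carboxykinase, which supplies glycerol for triglycerides, lay in a 92.7 kb preadipocyte LAD, 201 kb from any double knockdown LAD. Neither gene was in a LAD of adipocytes or of the Tmem120a knockdown. With LADs of at least 100 kb only, Cd36 was released as before and Pck1 met no LAD. Recruited were Pnpla3, a lipid droplet protein (58.1% in a 42.6 kb LAD), and Elovl6, a fatty acid elongase (26.3% in a 27.9 kb LAD), both 0% in the other adipocyte lists. Both met no LAD when only LADs of at least 100 kb were kept, and Elovl6 met none with LADs of at least 30 kb.

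Of 31 thermogenic and brown fat genes 23 met no LAD (74.2%), 4 met LADs of both lists, 2 were released and 2 recruited (6.45% each, against 3.44% and 6.76% of all genes). Ucp1 (chr8:85814247-85822355), the mitochondrial uncoupling protein of brown fat, was 0% in preadipocyte and 100% in double knockdown LADs. Its double knockdown LAD was 50.1 kb long, the nearest preadipocyte LAD was 48.2 kb away, and the gene was in no LAD of adipocytes or of the Tmem120a knockdown. Ppara, a nuclear receptor for fatty acids, was recruited over 39.3% of its body in a 26.7 kb LAD. The released genes were the homeobox gene Lhx8 and the zinc finger gene Zic1, both used as markers of classical brown fat, each 100% in preadipocytes and 0% in the double knockdown. Lhx8 was in no LAD of the other adipocytes, whereas Zic1 was 100% in LADs of both and lay 5.18 kb from the nearest double knockdown LAD. With gaps under 50 kb closed, Zic1 met LADs of both lists, and with LADs of at least 100 kb Ucp1 and Ppara met none. Under the latter setting 4 genes of this list were released, Prdm16, Bmp7, Lhx8 and Zic1, and none recruited. The shares of all genes were then 3.99% and 2.75%. In the full lists Prdm16 and Bmp7 were not released, because they met double knockdown LADs under 100 kb.

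**Figure D3:**
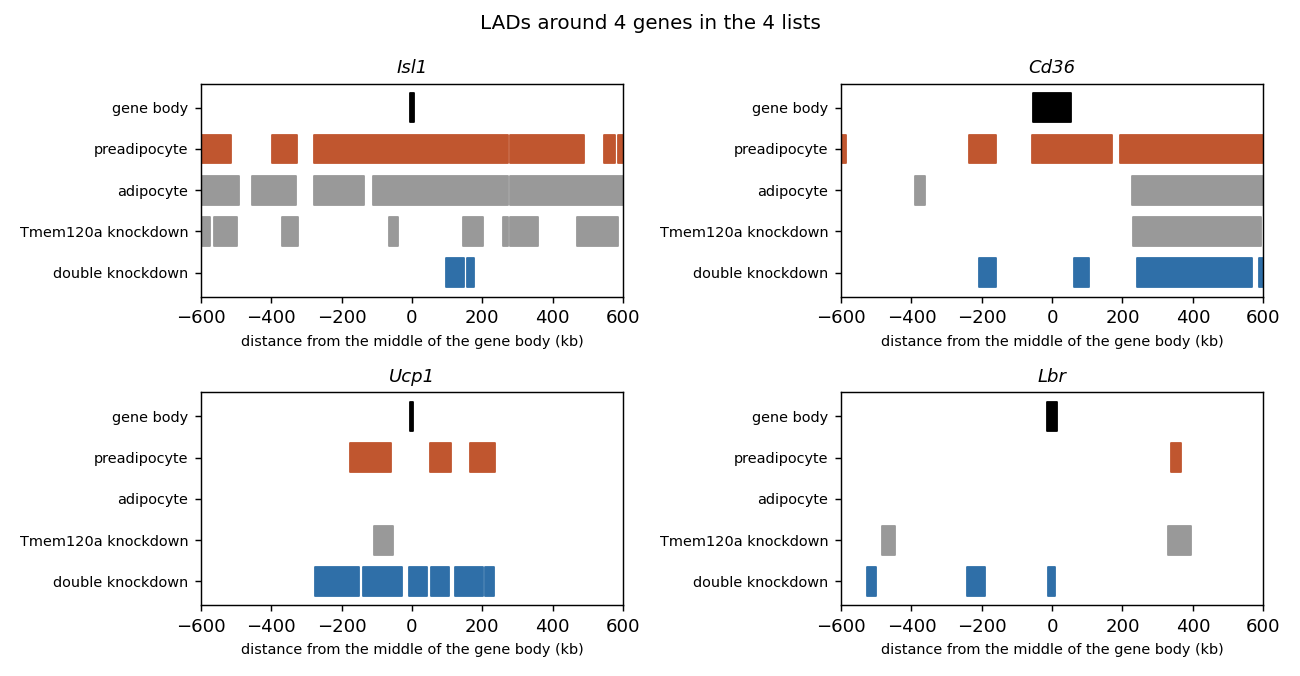
LADs of the 4 lists within 600 kb of Isl1, Cd36, Ucp1 and Lbr, drawn to scale as distance in kilobases from the middle of the gene body. Isl1 and Cd36 lie in preadipocyte LADs and in no double knockdown LAD, and Ucp1 and part of Lbr lie in double knockdown LADs of 50.1 kb and 17.8 kb and in no preadipocyte LAD.

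Of 31 measured nuclear envelope genes 25 met no LAD, 1 met LADs of both lists, none was released and 5 were recruited (16.1% against 6.76% of all genes). Only 1 of the 31 met a preadipocyte LAD, so no more than 1 could have been released. Zmpste24 (chr4:120731842-120770846), the protease that matures prelamin A, was recruited over 100% of its body in a 69.8 kb LAD. Lmnb1, which encodes LaminB1 itself, was recruited over 95.0% of its body in a 74.8 kb LAD, 383 kb from any preadipocyte LAD. Lbr (chr1:183745447-183772532), the lamin B receptor, was recruited over 65.5% of its body in a 17.8 kb LAD, with its start site outside and the nearest preadipocyte LAD 324 kb away. These 3 genes were in no LAD of adipocytes or of the Tmem120a knockdown. The others were Syne2, which encodes a nesprin (13.9%, and 9.46% in the Tmem120a knockdown), and the nucleoporin gene Nup210 (0.936%, and 15.5% in the Tmem120a knockdown). With LADs of at least 100 kb only, Zmpste24, Lmnb1, Lbr and Syne2 met no LAD and 1 of the 31, Nup210, was recruited, against 2.75% of all genes, and with at least 50% of the body required 4 were, against 4.37%. Lbr and Syne2 met no LAD when LADs under 30 kb were left out.

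Of 82 muscle genes 1 was released (1.22%, against 3.44% of all genes) and 8 were recruited (9.76%, against 6.76%), with 21 in LADs of both lists. Recruited over 100% of the body were Myf5 and Myf6, neighbouring myogenic regulators in 1 LAD of 411 kb. Myf5 was 100% in LADs of adipocytes and of the Tmem120a knockdown, and Myf6 was 100% in adipocytes and 0% in the Tmem120a knockdown. Pln, which encodes phospholamban, was recruited over 53.3%. Smaller shares were found for the satellite cell factor gene Pax7 (22.9%), Myom2 (12.5%) and Myh13 (2.82%). The released gene was the fast myosin heavy chain gene Myh4, with 38.1% in preadipocytes and 100% in adipocytes and in the Tmem120a knockdown. With LADs of at least 100 kb, 7 were recruited and 2 released, with 2.75% and 3.99% of all genes, and the released gene Myh4 met no LAD.

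Genes of fibroblasts and matrix proteases were recruited at shares near that of all genes (6.76%), and collagen genes at a higher one. Of 37 fibroblast and preadipocyte genes none was released and 3 were recruited (8.11%), Postn (periostin, 59.1%), Tnc (tenascin C, 37.1%) and Lox (lysyl oxidase, 19.6%). Their LADs were 23.9 kb, 22.6 kb and 33.0 kb long, and all 3 genes were in no LAD of the other adipocyte lists. Of 43 collagen genes none was released and 7 were recruited (16.3%) in 9 LADs on 6 chromosomes, led by Col6a4 (54.7%), Col23a1 (39.0%), Col13a1 (37.2%) and Col6a5 (23.4%). None of the 7 remained recruited with LADs of at least 100 kb, under which 1 collagen gene was released. With at least 50% of the body required, 3 collagen genes were released and 3 recruited, beside 3.25% and 4.37% of all genes under that rule. Of 47 matrix protease genes 2 were released (4.26%, against 3.44% of all genes), Mmp3 (59.1%) and Adamts2 (8.87%). Recruited were 4 (8.51%), Mmp10 (100%), Adamts17 (47.7%), Mmp7 (45.7%) and Mmp16 (7.90%). Kept to LADs of at least 100 kb, this list had 4 released and 3 recruited genes, and with at least 50% of the body required 2 and 1. Without LADs under 30 kb, Postn, Tnc, Col6a5 and Mmp16 met no LAD, and with LADs of at least 100 kb Lox and Mmp10 met none.

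Of 51 genes of the Wnt pathway 4 were released (7.84%, against 3.44% of all genes) and 1 was recruited (1.96%, against 6.76%). The rule of at least 50% of the body left 2 released and none recruited, beside 3.25% and 4.37% of all genes. Dkk1, a secreted Wnt inhibitor, lay 100% in a 490 kb preadipocyte LAD and in no LAD of the 3 adipocyte lists, although a double knockdown LAD came within 1.91 kb. Fzd10, a Wnt receptor, was 100% in preadipocytes and in adipocytes and 0% in both knockdowns. Both genes met LADs of both lists when gaps under 50 kb were closed. The R-spondin genes Rspo4 and Rspo2, which encode Wnt agonists, were released over 18.4% and 5.81% of the body. The recruited gene was Ror2, a receptor for Wnt5a (42.9%, and 50.8% in the Tmem120a knockdown). Of 64 genes of the BMP, activin and TGF-beta pathways 1 was released (1.56%), the BMP ligand gene Gdf6 (100% of its body), and 3 were recruited (4.69%), among them Gdf10 (46.8%) and the BMP antagonist gene Chrdl1 (21.1%). Of 28 FGF genes 1 was released (3.57%), Fgf16 (100% of its body), and 2 were recruited (7.14%), Fgf6 (100%) and Fgf7 (4.47%), which both met no LAD when LADs under 30 kb were left out. Of 40 Hox genes 38 met no LAD and 2 were released (5%), Hoxd1 (100% in a 21.3 kb LAD) and Hoxd13 (41.0% in a 68.5 kb LAD). Hoxd1 and Chrdl1 likewise met no LAD without the LADs under 30 kb, and Rspo4, Rspo2, Ror2 and Hoxd13 met none with LADs of at least 100 kb.

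Cadherin and keratin genes had recruited shares of 14.7% and 15%, against 6.76% of all genes, and most of the recruited members lay in gene clusters. Of 75 cadherin and protocadherin genes 42 met LADs of both lists, 2 were released and 11 recruited. The protocadherin beta cluster on chromosome 18 held both released genes, Pcdhb13 and Pcdhb14, and 8 of the 11 recruited genes, Pcdhb3, Pcdhb4, Pcdhb5 and Pcdhb15 to Pcdhb19. They are neighbours of 1 locus and not separate events. The 11 recruited genes met 5 LADs, and those outside the cluster were Cdh2 (37.0%), Fat4 (16.8%) and Cdh23 (3.87%). With LADs of at least 100 kb, 4 of this list were released and 12 recruited, beside 3.99% and 2.75% of all genes under that setting. Of these 12, 8 were recruited in the full lists too. With gaps under 50 kb closed, Pcdhb13, Pcdhb14 and Pcdhb15 to Pcdhb18 met LADs of both lists. Of 100 keratin and keratin-associated genes 2 were released and 15 recruited. The 15 lay in 5 LADs, within the keratin clusters of chromosomes 11 and 15. Among them were Krt1, Krt6a, Krt39 and Krt40 (each 100%, and 0% in the other adipocyte lists), which met no LAD when only LADs of at least 100 kb were kept. Of the 15, Krtap4-8, Krtap4-9 and Krtap4-16, in 1 LAD of 205 kb, were recruited under that setting too.

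Genes of receptor, adhesion, guidance and channel lists were found in both directions, and not all of them are particular to neurons. Their shares are to be read against 3.44% released and 6.76% recruited over all genes. Of 47 glutamate and GABA receptor genes 28 met LADs of both lists. Of these 47, 4 were released (8.51%), among them Grm6 (100%), Gria2 (55.1%) and Grik2 (11%), and 3 were recruited (6.38%), namely Grik4 (44.2%), Gabrr1 (28.9%) and Gria1 (4.98%). Gria2 and Grik2 were 100% and 94.7% in adipocyte LADs. Of 59 synaptic adhesion genes 1 was released (1.69%), the netrin receptor gene Unc5a (21.9% of its body), and 4 were recruited (6.78%), led by Robo4 (100%) and Ntng2 (65.0%). Of 31 semaphorins and plexins 2 were recruited (6.45%), Sema6a (25% of its body) and Plxnc1 (17.4%), and none was released. This turned with LADs of at least 100 kb, under which 2 of the list, Sema3d and Sema5a, were released and none recruited. In the full lists both genes met shorter double knockdown LADs. Of 96 potassium channel genes 3 were released (3.12%), Kcna2, Kcne4 and Kcnmb4 (each over 100% of its body), and 7 were recruited (7.29%), led by Kcna4 and Kcna5 (both 100%), Kcnu1 (90.5%) and Kcnh5 (53.0%). When LADs under 30 kb were left out, Unc5a, Robo4, Ntng2, Plxnc1, Gria1 and Kcna4 met no LAD. With LADs of at least 100 kb, Gria2, Grik4, Gabrr1, Sema6a, Kcnmb4, Kcna5 and Kcnu1 met none either, and with gaps under 50 kb closed Kcna2 met LADs of both lists.

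Genes of immunity, transport and metabolism were found in both directions, and the solute carrier shares lay near those of all genes (3.44% and 6.76%). Of 60 chemokine and chemokine receptor genes 3 were released (5%), Cxcl13 and Cxcl14 (both over 100% of the body) and Ccr9 (61.7%), and 3 recruited (5%), Ccl21a and Ccr8 (both 100%) and Ccr6 (61.9%). Each of these 6 calls ended under some setting. Cxcl13 and Ccl21a met LADs of both lists with gaps under 50 kb closed, Cxcl14, Ccr9 and Ccr8 met no LAD with LADs of at least 100 kb, and Ccr6 met none with LADs of at least 30 kb. Of 106 interleukin and interferon genes 2 were released (1.89%), Il19 (100% of its body) and Il2ra (36.3%), and 1 was recruited (0.943%), Il17f (100%). Il19 and Il2ra met no LAD with LADs of at least 100 kb. Of 355 solute carrier genes 16 were released (4.51%) and 25 recruited (7.04%). Of 98 cytochrome P450 genes 57 met LADs of both lists, 3 were released (3.06%) and 1 was recruited (1.02%). Among the released ones was Cyp2r1, a vitamin D 25-hydroxylase (100% in a 189 kb LAD). With LADs of at least 100 kb 12 P450 genes were released and none recruited, beside 3.99% and 2.75% of all genes under that setting. Of the 12, 2 were released in the full lists too, and the others met shorter double knockdown LADs there. Of 60 serpin genes 5 were released (8.33%) and 7 recruited (11.7%), but with LADs of at least 100 kb 10 were released and 4 recruited. Of the first 5 and 7, 3 in each direction kept their state. The protease inhibitor gene Serpine2 was released over 77.7% of its body and met no LAD under that setting.

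Genes of oxidative phosphorylation, ribosomal proteins and histone clusters were largely outside LADs of both lists, more often than the 67.0% of all genes. Of 93 oxidative phosphorylation genes 84 met no LAD (90.3%), 1 was released (1.08%, against 3.44% of all genes) and 4 were recruited (4.30%, against 6.76%). The released gene Cox7c, a subunit of cytochrome c oxidase, lay 100% in a preadipocyte LAD and in LADs of adipocytes and of the Tmem120a knockdown, and only 0.295 kb from a double knockdown LAD. With gaps under 50 kb closed it met LADs of both lists. The recruited genes were Uqcrb (100%), Ndufb5 (70.1%), Ndufa8 (13.3%) and Atp5o (7.34%), none in a LAD of the other adipocyte lists. Atp5o was annotated with a body of 247 kb, and its start site lay outside the LAD, so its call rests on that annotation. Of 80 ribosomal protein genes 74 met no LAD (92.5%), Rps4y2 was released (1.25% of the list), and 3 were recruited (3.75%), namely Rpl7 (100%), Rps9 (100%) and Rps20 (74.7%). Ndufb5, Ndufa8, Atp5o and Rps20 met no LAD when LADs under 30 kb were left out, and Rps4y2 and Rpl7 met none with LADs of at least 100 kb. Of 67 histone cluster genes 65 met no LAD (97.0%) and 2, Hist1h2aa and Hist1h2ba, were recruited. At the other extreme, 971 of 1113 olfactory receptor genes met LADs of both lists, with 43 released (3.86%) and 29 recruited (2.61%). Of 328 vomeronasal receptor genes 297 did, with 10 released (3.05%) and 7 recruited (2.13%). When only LADs of at least 100 kb were kept, 24 vomeronasal genes were released and 12 recruited, beside 3.99% and 2.75% of all genes. Of the first 10 and 7, 8 and 6 kept their state. Of 371 zinc finger genes named Zfp, 15 were released (4.04%) and 32 recruited (8.63%), and of 41 beta-defensin genes none changed. The Zfp counts were 22 released and 20 recruited with LADs of at least 100 kb, so that their order turned, as did that of all genes. The median change in the share of the gene body was 0 points in each of the 30 lists and over all genes.

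**Figure D4:**
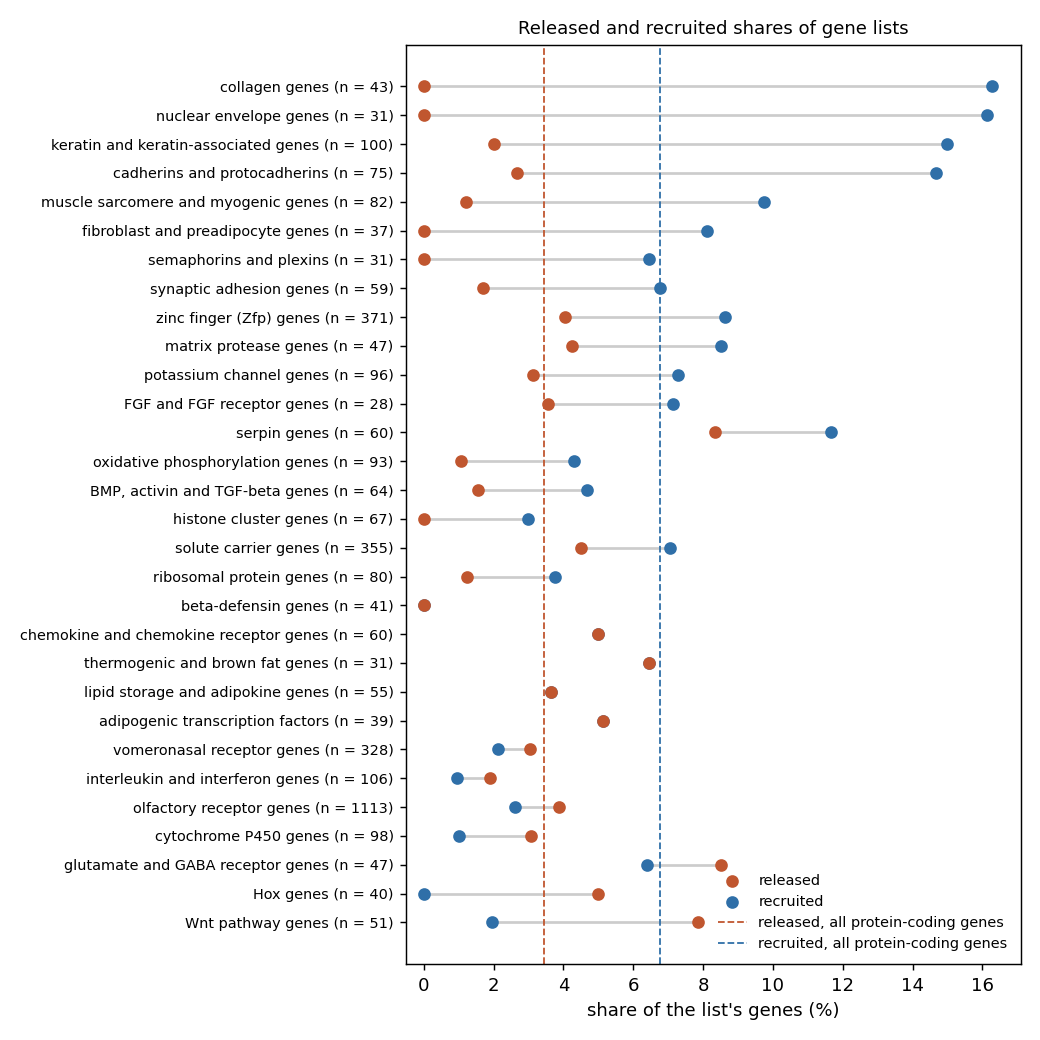
Share in percent (horizontal axis) of the measured genes of 30 gene lists (rows, with the number of genes) that were released or recruited between the preadipocyte and the double knockdown list; a single point marks equal shares. Dashed lines give the shares of all protein-coding genes, 3.44% released and 6.76% recruited, and the collagen, nuclear envelope, keratin and cadherin lists have recruited shares from 14.7% to 16.3%.

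Among the genes that the study examined by locus, Pla2g12a, a secreted phospholipase gene, was released. In preadipocytes 22.1% of its body and its start site were in a LAD, and the nearest double knockdown LAD was 43.3 kb away. Its body met no LAD of adipocytes or of the Tmem120a knockdown either. The paper lists it among genes that stayed at the nuclear envelope when Tmem120a was knocked down. Only the gene body and start site were read here, not the traces around the locus. The other protein-coding genes of the study that were read here did not change state by this rule. The miRNA gene Mir216a, whose locus the study also examined, was released and is described below. The paper describes more of this locus at the nuclear envelope after adipogenesis, and no such gain in the knockdowns. In these lists the gene was 100% in LADs of both preadipocytes and adipocytes, and 0% in both knockdowns. Dctd, Cpe and Myh1 met no LAD of either list. Nor did the body of Klf9, but the locus that the study examined was a predicted enhancer of this gene, which was not read here. Partial losses and gains were found in genes that met LADs of both lists. The share of Fh1 was 100% in preadipocytes and 31.9% in the double knockdown. That of Myo18b was 100% and 75.4%, and that of Ano5 was 43.9% and 88.9%. In adipocytes and the Tmem120a knockdown, the shares were 0% and 100% for Fh1, 100% and 73.0% for Myo18b, and 100% and 75.2% for Ano5. For Fh1 the paper describes a change intensified in the double knockdown, whereas its share was lower there than in the Tmem120a knockdown. The paper describes Myo18b and Ano5 as recruited in adipogenesis and as interior in knockout mice. Myo18b was at 100% before and after adipogenesis, and Ano5 exceeded its preadipocyte share in both knockdowns. Over all 5096 genes that met LADs of both lists, 3696 were wholly inside in both, 758 had a lower and 634 a higher share in the double knockdown, and the share fell by over 50 points in 128 and rose by over 50 points in 104.

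Genes of microRNAs (miRNAs), short RNAs that silence mRNAs paired with their seed, were called by the same rule. Of 1577 annotated miRNA genes 84 were released (5.33%) and 75 recruited (4.76%). The mature sequences below are from RefSeq (GRCm38.p6), with the seed, bases 2 to 8, in capitals. They are shown because their genes lay wholly in long stretches found in 1 list. Mir216b, Mir216a and Mir217 lay together in a 123 kb preadipocyte-only stretch on chromosome 11, and Mir346 and Mir135a-2 lay in double knockdown-only stretches of 120 kb and 115 kb on chromosomes 14 and 10.
miR-216b-5p: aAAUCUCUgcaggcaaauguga
miR-216a-5p: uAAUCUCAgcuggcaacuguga
miR-217-5p: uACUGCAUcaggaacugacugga
miR-346-5p: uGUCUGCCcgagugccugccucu
miR-135a-5p: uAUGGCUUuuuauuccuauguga
The seeds of miR-216b and miR-216a differ and that of miR-217 is another, so the stretch held 3 seeds. Mir216b and Mir217 were 100% in LADs of adipocytes and of the Tmem120a knockdown, and Mir216a was 100% in adipocytes and 0% in the Tmem120a knockdown. Mir346 was 100% in LADs of both, and Mir135a-2 was 100% in adipocytes and 0% in the Tmem120a knockdown.

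The miR-17-92 cluster, a growth-related set of miRNAs that are processed from 1 transcript, was released as a whole. It was chosen for description after its values were seen. Mir17, Mir18, Mir19a, Mir20a, Mir19b-1 and Mir92-1 lay 100% in a preadipocyte LAD and 0% in double knockdown, adipocyte and Tmem120a knockdown LADs, in a stretch of 47.8 kb on chromosome 14. The 6 mature sequences are grouped by seed, with the seed in capitals.
miR-17-5p: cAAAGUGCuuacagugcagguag
miR-20a-5p: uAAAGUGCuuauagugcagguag
miR-18a-5p: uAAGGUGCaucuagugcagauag
miR-19a-3p: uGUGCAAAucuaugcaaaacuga
miR-19b-3p: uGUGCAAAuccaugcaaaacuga
miR-92a-3p: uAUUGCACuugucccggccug
The seeds of miR-17 and miR-20a are the same, as are those of miR-19a and miR-19b. The 6 genes share 1 stretch and count as 1 locus. Mir205 and Mir146, also chosen after their values were seen, were recruited in stretches of 82.1 kb and 45.3 kb. Mir205 was in no LAD of the other adipocytes, and Mir146 was 100% in adipocyte LADs and 0% in the Tmem120a knockdown.

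Sequence composition was read from mm9 for each class of stretch. GC content was 39.5% in LADs shared by both lists, 40.5% in preadipocyte-only stretches, 42.0% in double knockdown-only stretches and 43.8% outside all LADs of both lists. Gene starts followed the same order, with 4.26, 5.04, 6.92 and 12.2 per Mb. The ratio of observed to expected CpG was 0.160, 0.180, 0.188 and 0.214 in that order. Whole double knockdown LADs without a preadipocyte counterpart had 42.4% GC and interior preadipocyte-only pieces had 39.99%. GATC sites, on which the assay depends, were 2.60 per kb in shared LADs, 2.58 in preadipocyte-only stretches, 2.44 in double knockdown-only stretches and 2.41 outside. GATC density thus moved with the direction of the difference, and its part in the calls was not tested.

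Promoters of the changed genes lay between those of genes in LADs of both lists and those of genes in none. Promoters were taken as 300 bases, 250 before and 50 after the start. The median number of CpG was 3 in genes of both lists, 7 in released genes, 11 in recruited genes and 16 in genes of neither, against 11 over all 22362 promoters read. At least 10 CpG were found in 42.0% of released and 53.6% of recruited promoters, against 54.0% of all promoters. The 200 bases before the start of 3 genes are shown on the strand of the gene with CG in capitals, to show how widely promoters of the changed genes differed.
Pck1, chr2:172978349-172978548, plus strand: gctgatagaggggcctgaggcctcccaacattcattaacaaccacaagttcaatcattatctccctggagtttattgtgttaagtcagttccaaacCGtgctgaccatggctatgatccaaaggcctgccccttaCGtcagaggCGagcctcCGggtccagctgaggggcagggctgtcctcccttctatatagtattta
Ucp1, chr8:85814047-85814246, plus strand: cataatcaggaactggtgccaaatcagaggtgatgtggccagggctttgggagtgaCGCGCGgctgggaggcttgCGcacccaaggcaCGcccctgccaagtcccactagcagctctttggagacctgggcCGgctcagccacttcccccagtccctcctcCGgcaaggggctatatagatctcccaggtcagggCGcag
Lbr, chr1:183772533-183772732, minus strand: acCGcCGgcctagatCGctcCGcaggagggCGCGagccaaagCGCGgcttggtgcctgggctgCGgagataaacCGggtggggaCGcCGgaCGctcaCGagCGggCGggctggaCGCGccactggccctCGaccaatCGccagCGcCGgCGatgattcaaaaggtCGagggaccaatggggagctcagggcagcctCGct
Over the 300 bases, the released gene Pck1 had 5 CpG and a GC content of 50.7%. The recruited genes Ucp1 and Lbr had 15 and 42 CpG and a GC content of 64.7% and 72%. The start of Lbr lay outside its double knockdown LAD, so the LAD did not reach this promoter.

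The X chromosome had the largest share of preadipocyte-only sequence, 19.9 Mb or 11.9% of its length, against 8.91 Mb or 5.35% found only in the double knockdown. It held 328 LADs in preadipocytes and 747 in the double knockdown, with 56 genes released (6.01% of its genes) and 91 recruited (9.76%). Chromosome 10 had the next largest preadipocyte-only share, 8.87%, and the largest double knockdown-only share, 7.37%. Double knockdown-only length was the larger one on chromosomes 2, 6, 8, 17, 18 and 19, with the widest difference on chromosome 8 (5.69% against 4.61%). Recruited genes were most frequent on chromosomes 13 (12.2% of genes), 18 (11.8%) and 1 (10.7%). They were least frequent on chromosome 19 (3.73%) apart from Y, which had none.

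**Figure D5:**
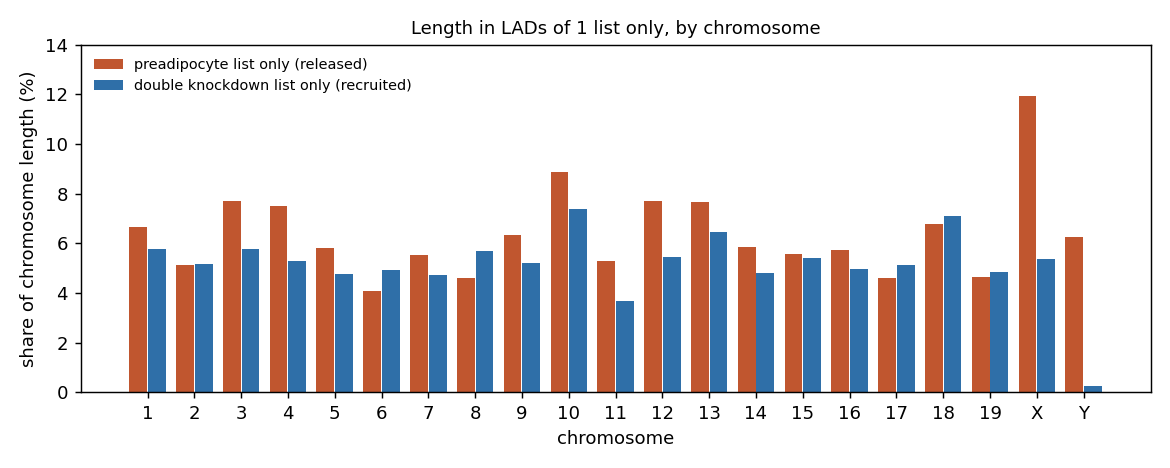
Share of each mm9 chromosome's length in percent (vertical axis) that lay in LADs of the preadipocyte list only or of the double knockdown list only. Chromosome X stands highest for preadipocyte-only length at 11.9%, with 5.35% found only in the double knockdown.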

How the data were processed

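LaminB1-DamID was carried out by the authors in 3T3-L1 cells, with 8 libraries for 4 conditions (a free Dam and a fusion library each). The submitters' processing notes name mm9, BWA and limma. By the study's methods, each DpnI fragment was given a log ratio of fusion to control and LADs were called by segmentation. How reads that map to several places were treated is not given in the sources used here, which matters for receptor, keratin and Ugt1a families. The authors deposited 1 list per condition with the start and end of each LAD in bp and no other value, and each list was assigned by the abbreviation it carries. The authors' 2 lists of differential regions were not used.

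Lists were compared at single-base resolution (Python 3.11.15, numpy 2.4.6), on mm9 (NCBIM37) with the GENCODE vM1 genes of 21 chromosomes, and the code was tested on simulated intervals with known answers. Plots were drawn with matplotlib 3.10.9. Named genes were the first 15 in each direction by length of the stretch that held the whole gene, at most 2 per stretch and without predicted-gene names, then at most 4 members in each direction of each of 30 gene lists, the genes the study discusses, the 3 longest and 3 most gene-rich stretches, and miRNA genes by stretch length. Genes named at the ends of the overlap and distance ranges, and list members beyond the first 4, were chosen after their values were seen. Cebpd and Syne3 were listed and not matched. The members and lists were chosen with earlier results of these data known. Promoters were read for the 22362 genes whose window could be read. A few members chosen by these rules are counted but not reported by name here.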

Additional observations from a re-analysis of the deposited data

How the results depend on the processing

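Keeping only LADs of at least 100 kb turned the order of the gene counts. It moved the double knockdown-only length to 72.8 Mb and the recruited genes to 614, with 892 released, so that the released genes became the larger group. Of the genes named from the lists, 34 of 59 released and 29 of 86 recruited ones kept their state under it, and the others met no LAD. With at least 50% of the body required 978 genes were recruited, with the start site 983, and with the whole body against none 472 recruited and 406 released. With gaps under 50 kb closed, 42 of 59 released and 77 of 86 recruited named genes kept their state, and the change in Nr4a3 turned to 50.1 points in favour of the double knockdown. The causes were not tested, except that short LADs are left out by construction. The settings for named genes and lists were chosen after seeing the data. LADs of at least 30 kb and leaving out chromosome X kept every length and total gene count within 1.5 times, but with LADs of at least 30 kb 6 of 59 released and 23 of 86 recruited named genes, Lbr, Postn and Ppara among them, met no LAD. No paired analysis was possible because the results come from no test and each condition has 1 list. Depth is unknown, so no statement on its limits can be made.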
